A study of Mus musculus with 27 samples.

Results

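The ActD peaks are the 407 regions listed for WDR43 in mouse embryonic stem (mES) cells treated with actinomycin D, out of 227913 peaks in the 17 peak lists of the series that were used here. They were chosen by treatment: every peak of the ActD library was taken, and they are set against the 31189 peaks of the DMSO library. Further sets serve for orientation: the 4426 WDR43 peaks under DRB, the lists of the WDR43 libraries labelled FB and cFB-KI, and 12 lists for RNA polymerase II (Pol II).

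ChIP-seq sequences the DNA that co-precipitates with a protein, and a peak is a region where reads pile up. The ActD, DRB and DMSO cells all carried Fbio-tagged WDR43, and chromatin was precipitated with a FLAG antibody. The labels give no inhibitor dose or duration, and no clone number. The FB and cFB-KI libraries were also FLAG precipitations of WDR43 from mES cells, with no treatment named. The Pol II lists cover Ser5P, Ser2P and hypoP Pol II in cells with a short hairpin RNA against WDR43 (shWDR43) and with a control hairpin (shCtl), 2 libraries for each form and hairpin. RNA was measured in shCtl cells without inhibitor (2 libraries), as poly(A) RNA in FPKM, a level scaled to length and depth. In these cells the pluripotency genes Pou5f1 (1038.4 and 1056.5 FPKM), Sox2 (213.1 and 226.4 FPKM) and Nanog (162.5 and 142.2 FPKM) were abundant. The fibroblast genes were mixed. Dcn and Postn were at 0.1 FPKM or less and Col3a1 at 0.3 and 0.7 FPKM. Thy1 stood at 3.6 and 5.2, Col1a2 at 12.9 and 16.1, and Col1a1 at 12.3 and 18.4 FPKM.

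WDR43 is a WD-repeat protein of the small-subunit processome, the nucleolar complex that assembles on nascent ribosomal RNA and processes it. Actinomycin D intercalates into DNA and stops elongating RNA polymerases, with Pol I the most sensitive of them. DRB inhibits the kinase CDK9, which releases paused Pol II into elongation. The comparison addresses how WDR43 occupancy of chromatin responds when transcription is inhibited. There was 1 library per treatment, so no difference between treatments could be tested against replicate spread. The 95% Wilson intervals below cover counting error within a list only, and the sequencing depth of the libraries is unknown.

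Sequence was at hand for promoter windows from 250 bases before to 50 bases after a RefSeq transcription start (GRCm38.p6). Only coding loci with a known strand (78.7%) could be placed against a window. No count for DMSO or DRB peaks is given there, so the number of genes below is not read as low or high. Of the 32851 windows, those of 8 genes held part of an ActD peak when positions were counted from the start of the mm9 locus: Casc4, Cpne4, Cyb5r4, Gm3336, Hrh3, Unc13a, Unc80 and Wdr43. The windows of 3 of them are shown to set the closest match to RE1, the element bound by the repressor REST, beside the peak. These 3 were chosen after their values had been seen, and in each the closest match overlaps the peak. The search was chosen after the genes had been seen. It took 2 half-sites, CAGCACC and GGACAG, separated by 2 unspecified bases, on both strands, and capitals mark the closest match. The windows lie at chr2:180104358-180104657 (- strand, Hrh3), chr9:104569405-104569704 (+ strand, Cpne4, 1 of 2 starts in the table) and chr8:71671708-71672007 (- strand, Unc13a).
Hrh3: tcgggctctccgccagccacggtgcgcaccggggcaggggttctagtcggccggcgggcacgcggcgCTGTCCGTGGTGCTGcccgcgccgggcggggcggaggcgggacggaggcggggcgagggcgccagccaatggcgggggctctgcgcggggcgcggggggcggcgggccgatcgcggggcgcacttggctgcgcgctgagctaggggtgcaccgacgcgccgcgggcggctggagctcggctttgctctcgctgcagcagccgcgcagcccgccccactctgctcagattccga
Cpne4: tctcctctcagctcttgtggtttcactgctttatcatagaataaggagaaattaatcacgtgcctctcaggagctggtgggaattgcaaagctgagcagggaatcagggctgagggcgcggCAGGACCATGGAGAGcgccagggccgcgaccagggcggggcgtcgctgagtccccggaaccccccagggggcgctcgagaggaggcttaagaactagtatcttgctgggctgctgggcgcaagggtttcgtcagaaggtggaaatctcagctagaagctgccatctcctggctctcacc
Unc13a: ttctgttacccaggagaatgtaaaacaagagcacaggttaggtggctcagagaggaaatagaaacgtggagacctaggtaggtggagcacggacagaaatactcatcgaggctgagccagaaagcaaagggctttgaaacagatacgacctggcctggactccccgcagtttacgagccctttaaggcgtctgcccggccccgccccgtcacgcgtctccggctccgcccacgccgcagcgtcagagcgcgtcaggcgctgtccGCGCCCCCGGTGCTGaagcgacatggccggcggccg

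The Hrh3 window, upstream of the histamine H3 receptor gene, held both half-sites with 0 mismatches over 13 scored bases, read on the opposite strand at -183 to -169. The ActD peak there spanned -222 to -65 and had a score of 51.4. The closest match had 2 mismatches in the Cpne4 window (-129 to -115, peak -292 to -120) and 3 in that of Unc13a, a synaptic vesicle priming factor (14 to 28, peak -77 to 94). In the windows not shown, the closest match lay outside the peak at Casc4 (2 mismatches), Gm3336 (2), Unc80 (3) and Wdr43 (5). At Cyb5r4 (3 mismatches) it lay inside the peak. An exact match was present in 12 of all 32851 windows (0.0365%), at most 2 mismatches in 632 (1.92%) and at most 3 in 4889 (14.9%), so the matches at Cpne4 and Unc13a are of a commoner kind. Among coding loci with an ActD peak at an end or inside and a window in the table, 1 of 96 held an exact match (1.04%), and 2 of 96 held one with at most 1 mismatch (2.08%, Celsr3 and Hrh3). An exact match was in 9 of 16184 coding loci with a window (0.0556%), and in 8 of 8997 with a DMSO peak (0.0889%). With at most 2 mismatches the shares were 8.33% of those 96 loci and 2.47% of all coding loci, and with at most 3 a match was in 24 of the 96 and in 17.7% of all coding loci. For coding loci with a DMSO peak, at most 1 mismatch was found in 30 of 8997 (0.333%), and over all coding loci in 42 of 16184 (0.260%). These are letter matches in a short window, and the Celsr3 peak itself was centred 756 bp past the start of the locus, outside that window. No such share is given for loci at the DMSO peaks with the highest scores, so the matches are not shown to be particular to ActD peaks.

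The ActD list was much shorter than the other WDR43 lists, while the median width of its peaks was close to that of the DMSO list. It held 1.30% as many peaks as the DMSO list and 9.20% as many as the DRB list, and covered 0.181 Mb, against 0.993 Mb under DRB and 8.96 Mb in DMSO cells. The median width was 255 bp under ActD (quartiles 172 and 390 bp), 173 bp under DRB and 236 bp in DMSO cells. Peaks over 1 kb were a larger share of the ActD list than of the whole DRB and DMSO lists. They numbered 25 (6.14%) under ActD, 46 (1.04%) under DRB and 187 (0.600%) in DMSO cells.

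Scores come from the authors and serve here to rank or filter peaks within a list. It starts at 50 in each list. Its median was 69.7 in the ActD list, 61.6 in the DRB list and 76.5 in the DMSO list, and 31.0% of ActD, 14.6% of DRB and 32.5% of DMSO peaks reached 100. The 407 DMSO peaks with the highest scores had a median width of 363 bp, wider than the ActD median. Their 90th width percentile was 1087 bp, against 618 bp under ActD, so peaks over 1 kb were more common among them than among ActD peaks.

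**Figure D1:**
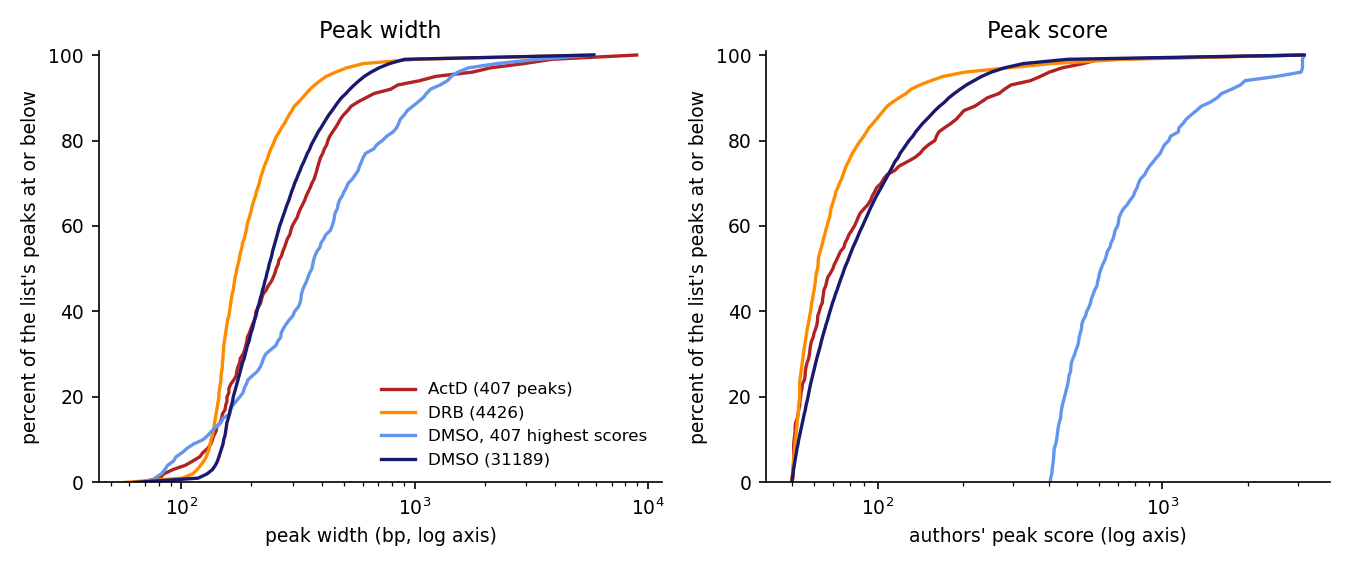
Cumulative share of peaks (percent) against peak width in bp (left, log axis) and against the authors' score (right, log axis) for ActD, DRB, the 407 DMSO peaks with the highest scores, and all DMSO peaks. The ActD width curve lies close to the DMSO curve up to its median of 255 bp and then trails to the right, up to 8946 bp.

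Most ActD peaks lay where WDR43 was also found without inhibitor. Of the 407, 319 (78.4%, interval 74.1 to 82.1%) overlapped a DMSO peak by at least 1 bp, 313 (76.9%) an FB peak and 275 (67.6%, 62.9 to 71.9%) a DRB peak. The cFB-KI list, whose peaks are broader (median 1030 bp), was met by 154 ActD peaks (37.8%, 33.3 to 42.6%). For DMSO peaks the same shares were 70.3% for FB and 49.2% for cFB-KI. ActD peaks were thus at FB peaks slightly more often than all DMSO peaks were, and at cFB-KI peaks less often, by these counts. The 407 DMSO peaks with the highest scores met FB in 69.8% (65.1 to 74.0%) and cFB-KI in 46.9% (42.1 to 51.8%). Both intervals overlap those of the ActD peaks (72.6 to 80.7% for FB), whose share was the higher for FB and the lower for cFB-KI.

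Read from the other side, 316 DMSO peaks (1.01%, 0.908 to 1.13%) had an ActD peak, and 2901 (9.30%, 8.98 to 9.63%) had a DRB peak. The retained DMSO peaks were those with high scores: their median DMSO score was 344, against 76.1 for the 30873 DMSO peaks without an ActD peak. When the DMSO list was cut by score into 10 bins of equal size, 228 of 3118 (7.31%) in the highest bin had an ActD peak and 31.2% a DRB peak. The next bin kept 34 peaks under ActD (1.09%), the one after it 14 (0.449%), and the remaining bins 4 to 9 peaks each (0.128 to 0.289%).

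**Figure D2:**
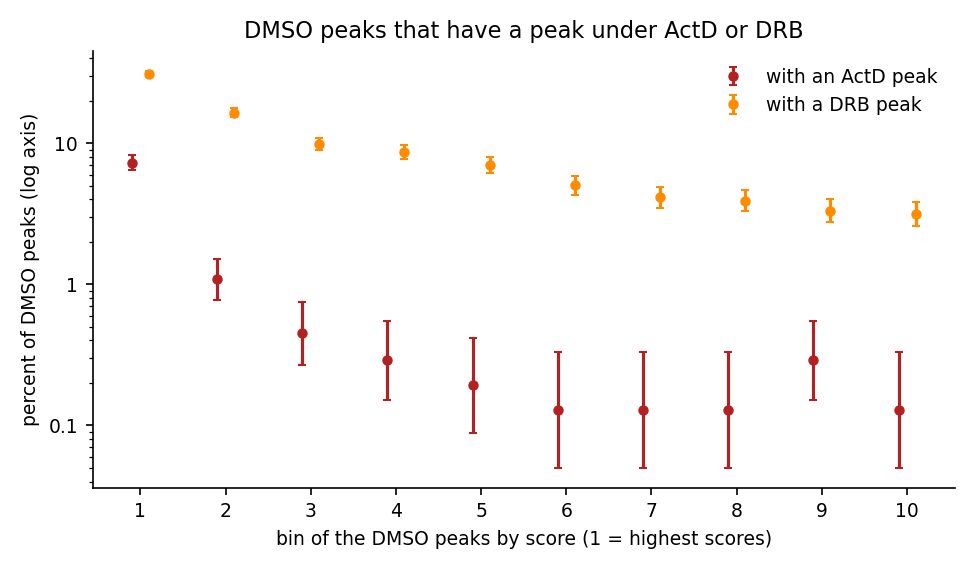
Percent of DMSO peaks with an ActD peak or a DRB peak (log axis), by bin of the DMSO score (10 bins of equal size, 1 holding the highest scores), with 95% Wilson intervals as bars. The ActD share falls from 7.31% in the highest bin to 0.128 to 0.289% in bins 4 to 10, while the DRB share falls from 31.2% to 3.14%.

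Within that highest bin, peaks at an end of a coding locus were kept less often than others. Of the peaks at an end, 38 of 1743 had an ActD peak (2.18%, 1.59 to 2.98%), against 53 of 345 inside a coding locus (15.4%, 11.9 to 19.5%) and 137 of 1030 outside (13.3%, 11.4 to 15.5%). The bin spans DMSO scores of 178 to 3141, and end peaks were rarer among the highest, so the split is not at equal score. Among the 407 highest DMSO peaks 23.4% of end peaks (15 of 64, 14.7 to 35.1%), 43.2% of inside peaks (33.3 to 53.6%) and 34.9% of outside peaks (29.3 to 40.9%) had an ActD peak. The share of the end peaks was again the lowest, though its interval overlaps both others. From there down to a score of 232 the shares were 2.10% (1.28 to 3.43%), 10.7% (6.07 to 18.1%) and 10.5% (7.63 to 14.2%). The splits that follow are over the whole bin, also not at equal score. Peaks with no Pol II list were kept at 20.7% and those with any Pol II list at 4.03%. Peaks absent from the cFB-KI list were kept at 18.2% and those present in it at 4.11%. Those that also had a DRB peak were kept at 22.0%, and those without one at 0.652%. The highest share in these splits of the whole bin was for peaks with DRB and FB peaks but neither a cFB-KI nor a Pol II peak, of which 111 of 193 had an ActD peak (57.5%, 50.5 to 64.3%). That combination of lists was picked after the overlaps of the ActD peaks had been seen, so its share is a description only.

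Ends of genes were less common among the ActD peaks. An end was taken as 1 kb around either end of 20509 loci with a RefSeq NM identifier, from the mm9 coordinates of the deposited RNA table. Of the ActD peaks, 49 (12.0%, 9.23 to 15.6%) were at an end, 89 (21.9%) inside and 269 (66.1%) outside. At an end were 30.8% of DRB peaks and 34.0% of DMSO peaks. Among the 407 DMSO peaks with the highest scores the share was 15.7% (12.5 to 19.6%), and its interval overlaps that of the ActD peaks. DMSO peaks that had an ActD peak were at an end in 15.2% of cases, against 34.2% of the DMSO peaks that had none.

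**Figure D3:**
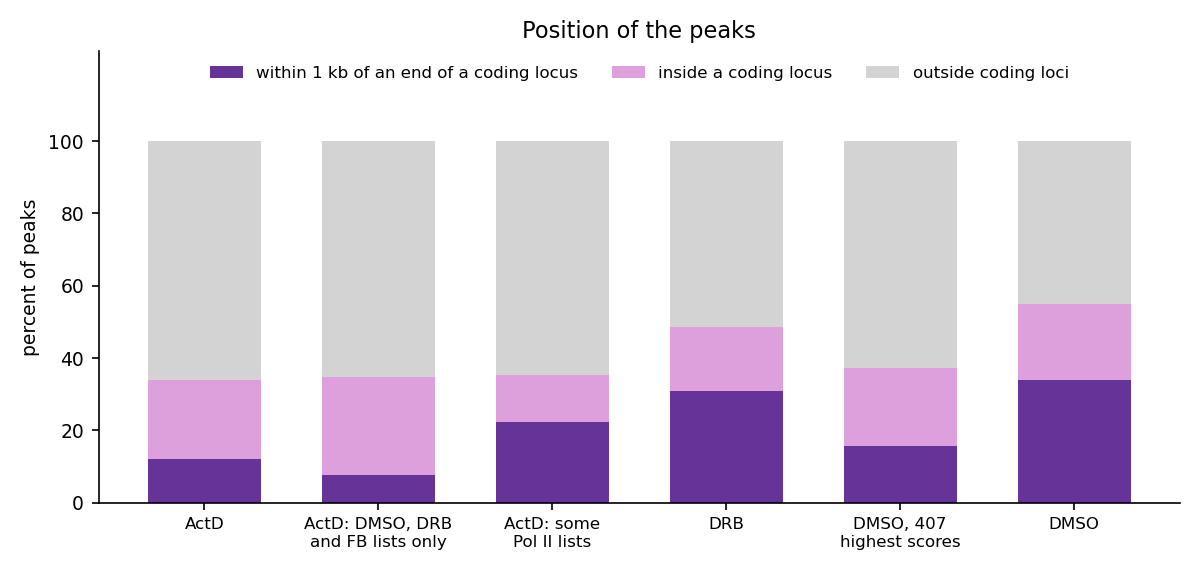
Percent of peaks within 1 kb of an end of a coding locus, inside one, or outside all of them, for the ActD list, 2 classes of ActD peaks, the DRB list, the 407 DMSO peaks with the highest scores and the DMSO list. The share at an end is 12.0% for ActD, 30.8% for DRB and 34.0% for DMSO.

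Counted by gene, 134 of 20509 coding loci had an ActD peak at an end or inside (0.653%), against 2027 with a DRB peak (9.88%) and 11400 with a DMSO peak (55.6%). The lists of coding genes below were read against these shares. None of 81 cytosolic ribosomal protein genes had an ActD peak, 18 had a DRB peak and 72 a DMSO peak. Of 65 replication-dependent histone genes, 0 had an ActD peak, 27 (41.5%) a DRB peak and 64 (98.5%) a DMSO peak. The naive pluripotency genes (0, 2 and 16 of 32 under ActD, under DRB and in DMSO cells), p53 targets (0, 4 and 21 of 27), immediate early genes (0, 4 and 15 of 23) and hosts of small nucleolar RNAs (0, 2 and 11 of 13) also had no ActD peak. At the ActD background of 0.653% a list of this length would hold few or none, so a count of 0 in one of them does not set it apart. The immediate early list does not hold Npas4, whose ActD peak is described below.

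The nucleolar lists held the few members with an ActD peak. Among 35 genes for Pol I and nucleolar proteins, 2 had one: Ncl, which encodes nucleolin, and Rrs1, a regulator of ribosome assembly. DRB peaks were at 3 of these 35 and DMSO peaks at 27. Among 37 small-subunit processome genes 1 had an ActD peak, Wdr43 itself, while 4 had a DRB peak and 29 a DMSO peak. Their ActD peaks had low scores, 55.0 at Ncl, 52.7 at Rrs1 and 50.8 at Wdr43, and lay also in 12 (Ncl), 13 (Rrs1) and 12 (Wdr43) of the 16 other lists. Among 9 loci of nucleolar and other small noncoding RNAs, 1 had an ActD peak, Rn45s, while 3 had a DRB peak and 7 a DMSO peak. The 1 spliceosomal small RNA locus in the table had a DMSO peak and neither an ActD nor a DRB peak. For these noncoding loci no background share is given, since the shares above are over coding loci.

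At Wdr43 (chr17:71965597-71965750) the ActD peak was 154 bp wide, centred 119 bp past the start, and ranked 370 of 407. The DRB list had 2 peaks at the locus, the higher at rank 362 of 4426, and the DMSO list 5 peaks, the highest at rank 1560 of 31189. Ranks in lists of different length are given as a description of each list.

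The ActD peak with the highest score, 3100, covered 5848 bp of Rn45s, the locus of the 45S ribosomal RNA precursor (chr17:39979934-39985781). It was present in all 17 lists with nearly the same outline, 5854 bp under DRB, 5926 bp in FB, 6270 bp in cFB-KI and 5858 bp in DMSO. It ranked 1 under ActD, 1 under DRB, 2 in FB, 4 in cFB-KI and 3 in DMSO, and between 1 and 14 in the Pol II lists. Scores near 3100 are a ceiling shared by several peaks, so equal scores there do not show equal occupancy. The Rn45s peak is also 1 of the 35 found in every list. For these, misassigned reads are raised below and were not tested, so the peak does not by itself show WDR43 held there under ActD. The RNA table lists Rn45s at 0.0 FPKM in both shCtl libraries.

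The number of other lists in which an ActD peak recurs separates the 407 into unlike groups. In all 16 other lists 35 ActD peaks (8.60%) had a counterpart, 37 (9.09%) had one in no other list, and 138 (33.9%) in exactly 3. Set against the 15 lists other than ActD and DMSO, 8.60% of ActD peaks, 12.3% of the 407 highest DMSO peaks and 0.237% of all DMSO peaks were in each of them. The share in every list was therefore higher than over the whole DMSO list and not higher than among DMSO peaks of high score.

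**Figure D4:**
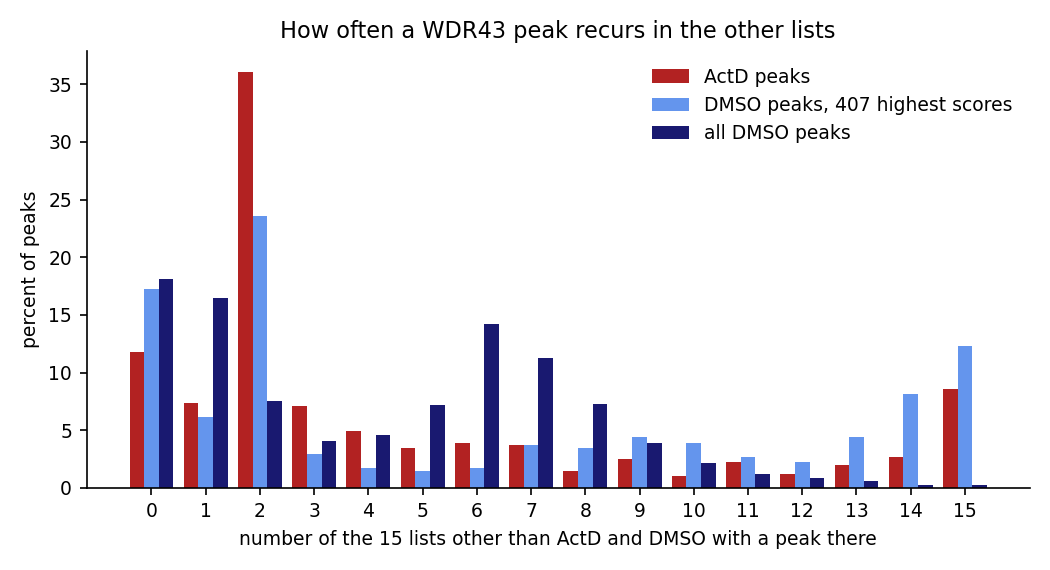
Percent of ActD peaks, of the 407 DMSO peaks with the highest scores and of all DMSO peaks, by the number of the 15 lists other than ActD and DMSO that have a peak at the same place. ActD peaks reach 36.1% at 2 lists and 8.60% at all 15, the highest DMSO peaks 23.6% and 12.3%, and all DMSO peaks 7.50% and 0.237%.

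The 35 ActD peaks found in every list had a median score of 104 and a median width of 351 bp. With 21 outside coding loci, 12 inside and 2 at an end, they were mostly away from gene ends. They include 5 neighbouring peaks at chr13:74666046-74668074, each in all 16 other lists, and peaks inside Zc3h7a (score 400), Cmss1 and Filip1l (264), C230081A13Rik (259), Cdk8, the Mediator kinase (172), Gphn, the scaffold protein gephyrin (82.4), and Jarid2, a cofactor of Polycomb complex PRC2 (56.1). The 2 at an end were at Dux, a multicopy homeobox gene (115), and at Lars2, the mitochondrial leucyl-tRNA synthetase gene (73.8), whose listed level was 3256.1 and 3811.0 FPKM in shCtl cells. A region that is enriched whatever is precipitated can be a place where reads are misassigned between copies of a sequence, but no blacklist, input track or mappability map was used here and that reading was not tested.

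Recurrence in every list did not go with retention in full. Of the 74 DMSO peaks with a counterpart in all 15 other lists, 33 had an ActD peak (44.6%, 33.8 to 55.9%), against 1.01% of all DMSO peaks. Among the 407 highest DMSO peaks, 29 of the 50 in all 15 other lists had one (58.0%, 44.2 to 70.6%), against 142 of the 407 (34.9%). Recurrent peaks were thus kept more often than DMSO peaks in general, but not all of them were kept. The 10 DMSO peaks with the highest scores that had no ActD peak all met the 12 Pol II lists, and 8 of them lay in all 15 other lists. They included chr2:98502379-98503232, chr2:98506308-98507501, chr12:3109858-3110165 and chr6:103599042-103599295, the last inside Chl1, a neural cell adhesion gene. So the shared regions are present in part in the ActD list, and some of those with a DMSO score at the ceiling are missing from it.

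**Figure D5:**
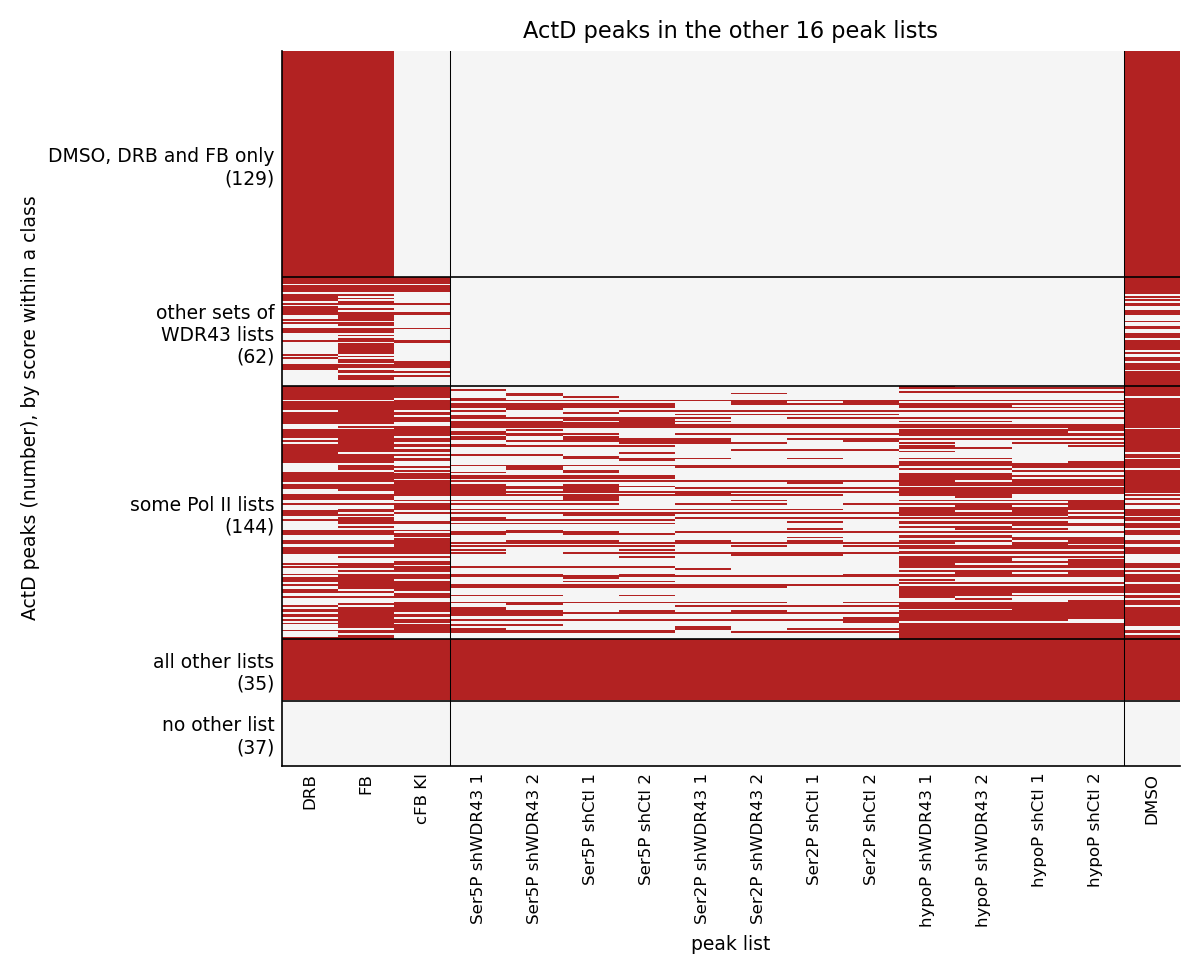
Each row is 1 of the 407 ActD peaks, sorted by score within 5 classes, and each column is 1 of the other 16 peak lists; red marks an overlap of at least 1 bp. The largest blocks are the 144 peaks with some Pol II lists and the 129 peaks that meet the DRB, FB and DMSO lists and no other.

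A different group carried most of the high scores. The largest class defined by a single pattern, named after the patterns had been seen, was the 129 ActD peaks (31.7%) that met DRB, FB and DMSO peaks and no cFB-KI or Pol II peak. Their median score was 121, against 104 for the peaks in every list, 62.7 for the 144 with some but not all lists including Pol II, 63.1 for 62 peaks in other sets of WDR43 lists and 55.7 for the 37 in no other list. They made up 13 of the 20 highest ActD peaks, 33 of the 50 highest and 62 of the 100 highest. Of the 129, 84 were outside coding loci, 35 inside and 10 at an end. Peaks in FB but in neither cFB-KI nor any Pol II list were 37.6% of ActD peaks, 14.1% of DRB peaks, 26.8% of the 407 highest DMSO peaks and 14.8% of all DMSO peaks.

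Of the 20 ActD peaks with the highest scores, 13 were outside coding loci, Rn45s among them. After Rn45s the highest was inside Erich1 (chr8:14072494-14072952, score 942), at rank 2 under ActD, 2 under DRB, 23 in FB and 28 in DMSO, with no cFB-KI or Pol II peak. The next 3 were outside coding loci, at chr9:21754732-21755257 (772), chr9:4138865-4139283 (639) and chr8:95993539-95994008 (604). Those inside coding loci were in Garnl3 (561), Unc5a, a netrin receptor gene (512), Zc3h7a (400) and Phf21b, a PHD-finger gene (392). Unc5a was listed at 0.1 FPKM in both shCtl libraries. Ranks of these 20 in the DMSO list ran from 3 to 416, so all of them were among the strongest DMSO peaks too.

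At ends of coding loci the highest ActD score was at Npas4, the gene of an activity-dependent transcription factor of neurons (chr19:4988995-4989416, score 551). Its peak, centred 766 bp past the start, ranked 7 under ActD, 8 under DRB, 39 in FB, 9867 in cFB-KI and 79 in DMSO, and met no Pol II list. Npas4 was listed at 0.0 FPKM in both shCtl libraries. Scrt1, a zinc-finger repressor gene of neurons (chr15:76352546-76352902, score 498), ranked 12 under ActD, 16 under DRB, 57 in FB, 19842 in cFB-KI and 170 in DMSO, and met 4 Pol II lists. Both peaks thus stood high in 4 of the 5 WDR43 lists and far down in the cFB-KI list.

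The next by score were Glra1, a glycine receptor subunit (296), Xkr7 (288), Vstm2l (283), Cacng2, the AMPA receptor subunit stargazin (277), Iqsec3, an Arf exchange factor of inhibitory synapses (238), and Celsr3, an atypical cadherin of axon guidance (236). All 6 were listed at 1.2 FPKM or less in both shCtl libraries. They were followed by Rtbdn, a riboflavin-binding protein of the retina (194), a peak between Dvl1, a Wnt signalling gene, and the taste receptor gene Tas1r3 (147), and Mapk8ip2, a JNK scaffold (105). Lower still were Ino80d, a subunit of the INO80 remodelling complex, Svop, a synaptic vesicle protein (92.9), Tlk2, a kinase of histone chaperones (92.7), and Cdk5r2, an activator of the kinase Cdk5 (92.5). Of these 15 peaks, 6 belonged to the class in DRB, FB and DMSO only, and Tlk2, listed at 20.1 and 16.4 FPKM, met 15 of the 16 other lists.

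Genes with an ActD peak at an end had lower RNA levels in uninhibited shCtl cells than genes with a DRB or DMSO peak there, and were near the level of all coding loci. The 54 coding loci concerned had a median of 0.675 FPKM (0.500 and 0.850 in the 2 libraries), against 9.97 FPKM for 1390 loci with a DRB peak at an end, 8.20 FPKM for 9433 loci with a DMSO peak there and 1.30 FPKM over all coding loci. At 1 FPKM or more were 48.1% of the 54 loci, 80.9% of those with a DRB peak at an end, 80.8% of those with a DMSO peak there and 52.5% of all coding loci. The 134 loci with an ActD peak at an end or inside had a median of 1.27 FPKM, and 53.7% of them reached 1 FPKM. For 11 loci with an end peak of the class in DRB, FB and DMSO only, the median was 0.150 FPKM. For 35 loci whose end peak met some Pol II lists it was 3.55 FPKM. RNA was not measured under ActD, so these are levels of the genes without inhibitor, and at under 1 FPKM they rest on few reads. Levels of loci at the DMSO peaks with the highest scores were not computed. Whether such loci share the low level was therefore not tested.

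How often ActD peaks met Pol II peaks of cells without inhibitor differed between the lists of the Pol II forms. These lists differ in size: the shCtl lists cover 32.8 and 35.2 Mb for hypoP, 8.96 and 10.6 Mb for Ser2P, and 1.45 and 1.96 Mb for Ser5P. Shares of different forms are therefore not at equal list size. Of the ActD peaks 157 (38.6%, 34.0 to 43.4%) met a Pol II peak of any form in shCtl cells, against 65.5% of DRB peaks and 54.5% of DMSO peaks. The 407 highest DMSO peaks met one in 49.6% (44.8 to 54.5%). By form, the shCtl hypoP lists met 28.7 and 29.7% of ActD peaks and 50.7 and 50.8% of DMSO peaks. The shCtl lists of the other forms met a larger share of ActD than of DMSO peaks: Ser5P 22.4 and 20.6% of ActD peaks and 5.55 and 7.34% of DMSO peaks, and Ser2P 17.4 and 17.2% of ActD peaks and 5.58 and 6.04% of DMSO peaks. Among the 407 highest DMSO peaks these shares were 38.8 and 38.6% for Ser5P, 29.0 and 28.3% for Ser2P and 41.5 and 40.8% for hypoP, each above that of the ActD peaks. The 35 peaks in every list are part of each of these ActD shares.

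The 5 widest ActD peaks lay at Sfi1, at Rn45s and in a region of chromosome 8. The widest, 8946 bp inside Sfi1, a centrosomal gene (chr11:3054534-3063479, score 115), met no other list, and a second Sfi1 peak of 6173 bp met DRB, FB and DMSO peaks. A peak of 7901 bp (chr8:20017069-20024969) met 6 other lists and one of 3885 bp (chr8:19973390-19977274) met 3. Of the 25 peaks over 1 kb, 20 met a DRB peak and 16 a DMSO peak.

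Some ActD peaks lay close to one another. Within 10 kb of another ActD peak were 64 of the 407 (15.7%), in 25 clusters, against 45 of the 407 highest DMSO peaks (11.1%), in 19 clusters. Without the 16 ActD peaks in 3 clusters at Rn4.5s, a multicopy small RNA, the ActD share was 12.3%. The largest cluster, 9 peaks at chr6:47690466-47727295, overlaps Rn4.5s. Next came 2 clusters of 5 peaks, one at chr6:47622871-47637031, also at Rn4.5s, and the one at chr13:74666046-74668074 named above. Chromosome 6 held 38 ActD peaks, 9.34% of them, against 4.49% of DMSO peaks. Without the peaks in the Rn4.5s clusters it held 22 of 391 ActD peaks (5.63%), against 4.46% of DMSO peaks. The X chromosome held 19 ActD peaks (4.67%) and 2.48% of DMSO peaks, and chromosome 10 held 5 ActD peaks (1.23%) and 4.64% of DMSO peaks. These are small counts. The X peaks include clusters at chrX:166427192-166430916 and chrX:166442911-166447042, which were not set aside. On random and unplaced contigs were 5.16% of ActD, 7.62% of the 407 highest DMSO and 1.49% of all DMSO peaks.

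The 37 ActD peaks in no other list were weak and narrow for the most part. Their median score was 55.7 and their median width 160 bp, 28 were outside coding loci, 9 inside and 0 at an end. After Sfi1 the highest scores were inside Katna1, which encodes the catalytic subunit of the microtubule-severing enzyme katanin (89.5), and Zbtb16, a zinc-finger transcription factor gene (84.7), at chr6:114502017-114502111 (83.6) and inside Gsto2, a glutathione transferase gene (70.0). The Zbtb16 peak was 73 bp wide and the Gsto2 peak 81 bp.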

How the data were processed

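The authors deposited 1 MACS-named peak list per ChIP library, with a score for each peak. Reads were aligned with Bowtie2 to mm9, per the submitters' processing notes. For the caller's version, threshold, control library and handling of duplicates nothing is given in the sources used here. The depth is unknown. A shallower library yields fewer peaks above a fixed score, so the length of a list depends on depth as well as occupancy. The authors' RNA table was made with TopHat and Cufflinks, per the submitters' processing notes. Its values are deposited as levels that were taken as FPKM from their form, and were used as levels of shCtl cells only.

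Computed here with Python 3.11.15, pandas 2.3.3, numpy 2.4.6 and SciPy 1.17.1 were interval overlaps (1 bp), Wilson intervals (95%) and positions against loci of the RNA table. The overlap code was checked on simulated intervals. A strand was found for 78.7% of the 20509 coding loci, so the distance from a start is given for those loci only. Promoter windows came from RefSeq GRCm38.p6 and no coordinate was converted. Genes were named by rule: the 20 highest ActD peaks, the 15 highest at an end that are not in every list, the 5 widest, the 10 highest in no other list, the 10 highest DMSO peaks with no ActD peak, and list members with an ActD peak. The genes named among the peaks in every list, the genes with a promoter window and the peak classes were chosen after their values had been seen. The peaks and gene lists were chosen with earlier results of these data known. Alternatives were other overlap rules, score filters, merged peaks, other distances to an end and leaving out lists or libraries. The samples without a peak list here, and the shWDR43 RNA, are not analysed here.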

Additional observations from a re-analysis of the deposited data

How the results depend on the processing

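Of 47 alternative values for 12 results, 28 stayed within the counting interval, the spread of the 2 libraries or 1.5 times the count, and 19 moved. With a score of at least 100, 126 ActD peaks were left, 95.2% of them at DMSO and 93.7% at DRB peaks of that score; 1.18% of DMSO peaks then met an ActD peak, and 47.5% of DMSO peaks were at an end. That filter in every list left 15 peaks in all lists and 78 in DRB, FB and DMSO only; applied to ActD peaks alone it left 19 and 73. Peaks merged within 1 kb gave 1.45% as many ActD as DMSO peaks. Against the 407 highest DMSO peaks the width ratio was 0.702, against 1.08 over all DMSO peaks. Counting peaks within 1 kb as shared gave 82.8% of ActD peaks at DMSO peaks and 1.20% of DMSO peaks at ActD peaks; requiring 50% of the peak to be covered gave 0.818%. Ends of 5 kb gave 22.6% of ActD and 43.8% of DMSO peaks, and ends of 500 bp 30.8% of DMSO peaks. Loci of at least 1 FPKM had a median of 16.2 FPKM, since the low loci are then gone. A Pol II peak in both libraries of a form was met by 31.2% of ActD peaks. Without either shCtl replicate this share was 34.9 to 35.1% and the median level 0.500 to 0.850 FPKM. For the median level the yardstick was the spread of those same 2 libraries, so leaving either out could hardly count as a move. The cause of the other moves was not tested. The alternatives on random contigs, on the genetype column, on peaks of every list and on the class in DRB, FB and DMSO only were chosen after seeing the data. No paired analysis was possible because ActD and DMSO have 1 library each and no result comes from a test. The unknown depth and the single libraries limit all of these values.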
